A study of Mus musculus with 12 samples.

Results

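The early embryo assigns cells to lineages through a small set of DNA-binding proteins, and 10 of their genes were followed here in mouse embryonic stem cells. Gata4, Gata6, Sox17 and Foxa2 are known for the primitive and definitive endoderm. Eomes and Mixl1 are genes of the mesendoderm, the precursor of mesoderm and endoderm, and Eomes is also used in the trophectoderm, the outer layer that forms the placenta. Cdx2 is the defining factor of the trophectoderm, Pax6 and Sox1 mark the neuroectoderm, and Otx2 is used first in the epiblast as it leaves the naive state and later in the anterior neuroectoderm. Cells kept in serum with leukemia inhibitory factor are held in a pluripotent state, in which many such genes are known to be silent or poised, and cultures of this kind are known to hold a few cells that have begun to differentiate. The genes are given by name, with no threshold on a measured value, and they were picked when earlier results of these data were known.

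The values came from 1 mouse embryonic stem cell line, DTCM23/49 XY, grown on gelatin without added treatment other than the label. Cells were given 200 µM 4-thiouridine (4sU), a uridine analog that enters RNA made while it is present, for 15, 30 or 60 min. From each culture, labeled RNA, which was biotinylated and pulled down, and total RNA, which held labeled and older RNA of the same kind of 4sU-treated cells, were sequenced. There were 2 biological replicates, which came from a single culture that had been divided and passaged, giving 6 labeled and 6 total RNA libraries, all from cells given 4sU. P-values therefore measure the spread between these libraries of 1 line.

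Of the 10 genes, 9 were matched to the table through GENCODE M1, and Sox1 was not matched and is not analysed here. The 9 genes have 104 of the 213131 rows of the table, 52 for the exons and 52 for the introns of 52 transcripts. GENCODE M1 lists 60 transcripts for them, and 26 of the 33 Pax6 transcripts and 6 of the 7 Gata4 transcripts were present. M1 holds 75.1% of the Ensembl transcripts in the table, so newer transcripts of these genes could be among the unmatched rows. Values are abundances per length in arbitrary units that sum to between 19988830 and 19992902 in each library, so that 20 units are about 1 TPM. Values of 1 or less are missing from the table, and 1.01 is the smallest one given. Sequencing depth cannot be read from values scaled in this way, so their counting error, which is large for values near the limit, cannot be estimated.

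The state of the cells was checked against markers. All 10 embryonic stem cell markers had exonic values in all 12 libraries, and their summed exonic abundance ranged from 21181 to 29726 in total RNA and from 20071 to 32847 in labeled RNA. Of 6 fibroblast and feeder markers, Col3a1, Lum and Postn had no exonic value in any library, and the summed exonic abundance ranged from 23.9 to 55.8, most of it from Thy1. The sum of 5 trophoblast markers ranged from 6.50 to 14.9 in total RNA and from 14.5 to 22.3 in labeled RNA, with Tpbpa at no exonic value. The 5 primitive endoderm markers summed to between 3235 and 5999, nearly all from Sparc, which encodes a matrix protein that many cell types make. Pdgfra and Sox7, which are more specific to that lineage, had exonic means of at most 0.387 and 2.75. Lama1 and Dab2, of the same list, had exonic values in all 12 libraries, with means of 66.2 and 41.4 in total and 48.8 and 34.7 in labeled RNA. The 4 neural markers that were matched summed to between 219 and 502, mostly Tubb3. In bulk RNA, a few cells with much of an RNA and many cells with little of it cannot be told apart.

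The 4 promoters printed here belong to the member with the highest and to 1 with no abundance, so that the start sites behind the values can be seen. They are the 250 bases before the start of RefSeq transcripts on GRCm38.p6, given 5′ to 3′ in the direction of the gene with each CpG in capitals. Of the 10 genes, 6 have RefSeq promoter entries there, 12 entries in all. Otx2 has 4 such entries, and the 3 printed ones, those of its most abundant transcripts, lie on the minus strand at chr14:48667509-48667758, chr14:48665110-48665359 and chr14:48662735-48662984. The bases that follow each of them were found in the transcripts ENSMUST00000119070, ENSMUST00000118578 and ENSMUST00000122009, in that order, and those of the first also in 3 shorter Otx2 transcripts. The Cdx2 window lies on the minus strand at chr5:147307250-147307499, before ENSMUST00000031650. The Otx2 window that is not printed, chr14:48667645-48667894, overlaps the first and precedes ENSMUST00000152018.
Otx2 start of ENSMUST00000119070: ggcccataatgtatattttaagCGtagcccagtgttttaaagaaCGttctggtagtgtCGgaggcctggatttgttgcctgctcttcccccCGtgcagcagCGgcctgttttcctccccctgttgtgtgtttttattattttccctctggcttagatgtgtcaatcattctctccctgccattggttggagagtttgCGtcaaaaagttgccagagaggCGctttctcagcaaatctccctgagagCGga
Otx2 start of ENSMUST00000118578: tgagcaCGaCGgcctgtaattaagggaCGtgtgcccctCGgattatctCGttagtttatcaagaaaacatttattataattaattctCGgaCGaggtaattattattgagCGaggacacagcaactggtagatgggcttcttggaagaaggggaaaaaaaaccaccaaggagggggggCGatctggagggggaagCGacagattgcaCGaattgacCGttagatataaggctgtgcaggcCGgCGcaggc
Otx2 start of ENSMUST00000122009: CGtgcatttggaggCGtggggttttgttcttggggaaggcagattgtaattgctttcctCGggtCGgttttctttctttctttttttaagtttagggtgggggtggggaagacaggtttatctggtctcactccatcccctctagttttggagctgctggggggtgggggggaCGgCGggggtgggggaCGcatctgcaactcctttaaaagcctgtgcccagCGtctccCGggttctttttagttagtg
Cdx2 start of ENSMUST00000031650: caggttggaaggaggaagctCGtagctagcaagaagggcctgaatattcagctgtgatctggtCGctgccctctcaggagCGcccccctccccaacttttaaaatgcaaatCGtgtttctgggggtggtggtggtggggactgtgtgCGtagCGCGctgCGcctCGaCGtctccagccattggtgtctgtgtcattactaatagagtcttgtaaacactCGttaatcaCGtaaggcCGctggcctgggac
The printed Otx2 windows hold 8, 14 and 9 CpGs, the other Otx2 window 6 and the Cdx2 window 13, against a median of 6 in the windows of all 32851 RefSeq starts. The motif TATAAA, searched on both strands, was in the Otx2 window that is not printed, in none of the 4 that are, and in 12.4% of all windows. The homeobox motif TAATCC, searched likewise, was in the second printed Otx2 window alone of these and is in 6.25% of all windows. A match of letters is not a binding site.

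Many values of these genes were at or below the limit of the table. Of the 624 exonic values of the 9 genes, 250 were missing (40.1%), against 24.0% of the exonic values of all transcripts of protein-coding genes. Of the 624 intronic values, 428 were missing (68.6%), against 19.2%. Pax6 alone has 26 of the 52 rows of each kind, and 123 of its 312 exonic and 301 of its 312 intronic values were missing. The pooled intronic share of missing values thus rests largely on the many transcripts of this gene. The pooled exonic share does not, since the exonic share of Pax6 was close to it. No value at all was given in 33 of the 104 rows. Exonic values of the members were present in 25 to 41 of 52 rows in total RNA libraries and in 21 to 38 in labeled ones. Intronic values were present in 13 to 17 of 52 rows in total and in 16 to 24 in labeled libraries. The 2 ranges overlapped, and the labeled library of replicate 1 at 15 min had the most intronic rows.

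**Figure D1:**
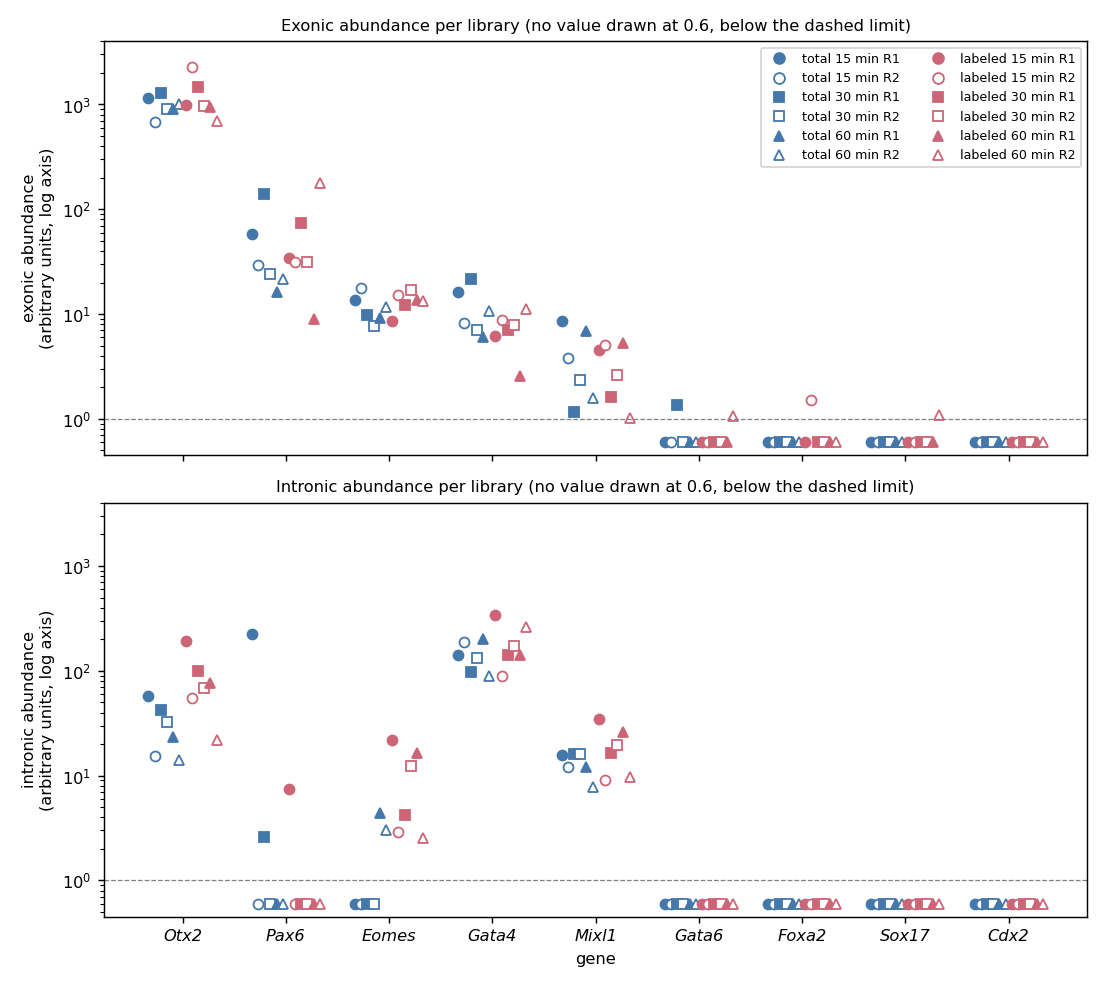
Exonic (top) and intronic (bottom) abundance of the 9 matched genes, summed over transcripts, in each of 12 libraries on a log axis in arbitrary units. Blue points are total and red points labeled RNA, the shape gives the labeling time, filled points are replicate 1 and open points replicate 2, and a library with no value is drawn below the dashed limit. Otx2 exons lie above those of the other genes in every library, Gata4 introns lie above its exons, and 4 genes at the right have almost no points.

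Cdx2 (ENSMUSG00000029646) had no exonic and no intronic value in any of the 12 libraries. Sox17, an HMG-box factor of the endoderm, had a single exonic value, 1.08 in labeled RNA of replicate 2 at 60 min. Foxa2, a forkhead factor that opens chromatin in endoderm, had a single exonic value, 1.5 in labeled RNA of replicate 2 at 15 min. Gata6, which drives primitive endoderm in the blastocyst, had exonic values in 2 libraries, 1.37 in total RNA of replicate 1 at 30 min and 1.06 in labeled RNA of replicate 2 at 60 min. None of these 4 genes had an intronic value. A missing value says only that the abundance was 1 or less, so these genes were not detectable above that limit in nearly all libraries. Their levels could not be ordered among themselves.

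The remaining 5 genes had exonic values in every library. In total RNA the mean exonic abundances were 994 ± 214 (SD, n = 6) for Otx2, 48.3 ± 47.4 for Pax6, 11.6 ± 3.63 for Eomes, 11.6 ± 6.13 for Gata4 and 4.05 ± 3.02 for Mixl1. Otx2 exceeded Pax6 in all 12 libraries with no overlap of ranges, and its exons made up 88.1% to 96.0% of the members' exonic abundance in total RNA and 77.3% to 97.4% in labeled RNA. Neighbours below Otx2 overlapped in range in both kinds of RNA. Pax6 exceeded Eomes in 6 of 6 total and 5 of 6 labeled libraries, Eomes exceeded Gata4 in 4 and 6, and Gata4 exceeded Mixl1 in 5 and 5. Among 21503 protein-coding genes, 92.8% had a lower mean exonic abundance in total RNA than Otx2, 60.1% lower than Pax6, 46.4% lower than Eomes, 46.4% lower than Gata4 and 38.1% lower than Mixl1. By this scale Otx2 was at about 49.7 TPM and the other 4 were between 0.202 and 2.41.

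Otx2, a homeobox factor that shifts stem cells toward the primed epiblast, spans positions 49277354 to 49287319 of chromosome 14 (minus strand, NCBIM37, ENSMUSG00000021848), and all 8 of its transcripts had exonic values in all 12 libraries. In total RNA its exonic abundance was 1160 and 681 at 15 min, 1288 and 902 at 30 min, and 912 and 1021 at 60 min (replicates 1 and 2). In labeled RNA it was 989 and 2289 at 15 min, 1464 and 962 at 30 min, and 939 and 703 at 60 min. The labeled library of replicate 2 at 15 min was the highest of the 12, and 4 of the other 5 labeled libraries lay within the range of total RNA. Labeled RNA was 0.22 ± 0.25 (SE) higher on the log2(value + 1) scale (limma, adjusted p = 0.588), and without that library the difference was -0.0026. Of all 25318 genes or unmatched transcripts whose exons averaged at least 20 units, 15.9% differed at an adjusted p under 0.05, 6.38% higher and 9.49% lower in labeled RNA. These shares were 21.1%, 6.51% and 14.6% with each library centred on its median. With each replicate number and time as a block they were 9.65%, 4.76% and 4.89%. Each unmatched transcript was a unit of its own, and such units are included wherever all genes are named or counted.

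The 3 transcripts of Otx2 whose start regions are printed above held 74.9% of its exonic abundance in total RNA and 73.4% in labeled RNA. ENSMUST00000119070, with 5 exons and 1708 bases, had the highest mean, 261 ± 63.5 (SD, n = 6) in total and 334 ± 145 in labeled RNA. ENSMUST00000122009 had means of 255 ± 45.5 and 293 ± 132, and ENSMUST00000118578 had 229 ± 45.1 and 272 ± 128. These 3 transcripts differ in their start, and their ranges over libraries overlapped throughout. Reads shared by transcripts were divided between them by the quantification, so that the levels of single transcripts are less certain than their sum.
ENSMUST00000135279 and ENSMUST00000152018 set the labeled library of replicate 2 at 60 min apart. There they had 29.2 and 21.9, against 126 to 296 and 88.3 to 194 in the other 5 labeled libraries. In the same library ENSMUST00000119070 had 253, within the 238 to 603 of the other labeled libraries. Tested one by one, none of the 6 Otx2 transcripts that passed the filter differed between labeled and total RNA (limma, adjusted p from 0.438 to 0.886).

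**Figure D2:**
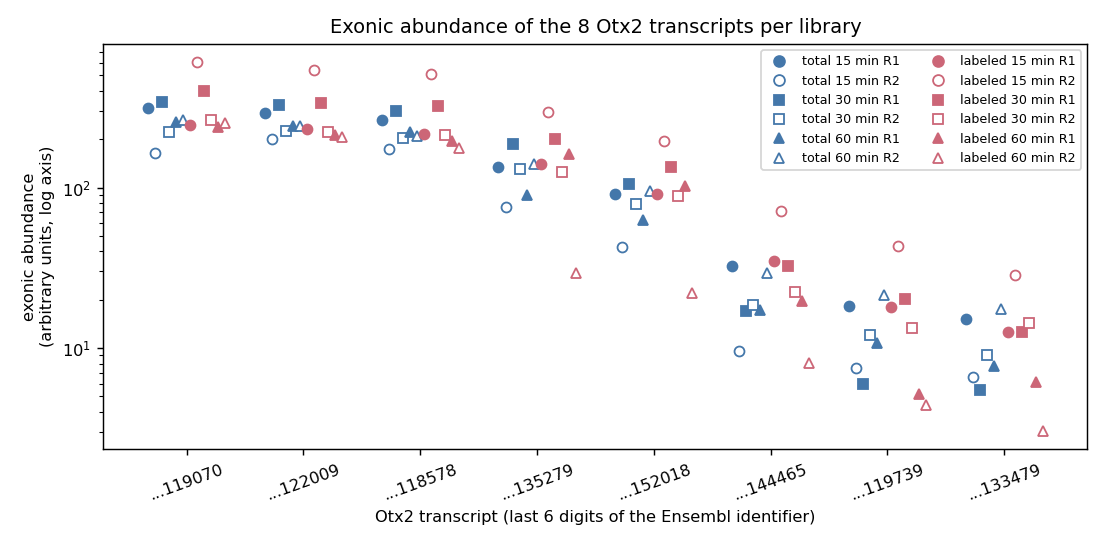
Exonic abundance of the 8 Otx2 transcripts in each of 12 libraries, on a log axis in arbitrary units. Blue points are total and red points labeled RNA, with shapes for labeling time and filled points for replicate 1. The 3 transcripts at the left hold about 75% of the total, the labeled library of replicate 2 at 15 min is the highest for every transcript, and that of replicate 2 at 60 min is low for ENSMUST00000135279 and ENSMUST00000152018.

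Introns of Otx2 were more abundant in labeled RNA. Its intronic abundance in total RNA was 57.2 and 15.3 at 15 min, 42.1 and 32.6 at 30 min, and 23.3 and 14.2 at 60 min (replicates 1 and 2). In labeled RNA it was 194 and 55.2 at 15 min, 99.9 and 68.8 at 30 min, and 75.8 and 21.9 at 60 min. Labeled RNA was higher than total RNA of the same replicate number and time in 6 of 6 pairs, but the ranges overlapped through the labeled libraries of replicate 2 at 15 and 60 min. The difference was 1.34 ± 0.41 (SE) on the log2(value + 1) scale (limma, adjusted p = 0.0256).
That call is one of many. Of 12621 genes or unmatched transcripts tested in introns, 28.4% passed in favor of labeled RNA and 0.317% in favor of total RNA. Their median difference was 0.60. With each library centred on its median, 10.6% were higher and 11.3% lower. With centring, Otx2 introns differed by 0.70 (limma, adjusted p = 0.0809). The call was also lost without the labeled library of replicate 1 at 15 or 30 min, or without the total library of replicate 2 at 15, 30 or 60 min, with differences from 1.06 to 1.32 and adjusted p from 0.0530 to 0.0736 (limma).

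The share of introns in Otx2 RNA ran with that of the library. Introns made up 2.90 ± 1.15% (SD, n = 6) of Otx2 abundance in total RNA and 7.04 ± 5.02% in labeled RNA. Whole libraries had intronic shares of 6.53% to 7.41% in total RNA, and in labeled RNA of 14.8% and 7.24% at 15 min, 9.35% and 10.8% at 30 min, and 13.9% and 6.99% at 60 min. For Otx2 the labeled shares were 16.4% and 2.36%, 6.39% and 6.67%, and 7.47% and 3.02% in the same order. The labeled libraries with the lowest intronic shares, those of replicate 2 at 15 and 60 min, were thus also the lowest for Otx2, and lay within its range in total RNA. Without the 3 labeled libraries of highest intronic share, the difference in Otx2 introns was 0.84 (limma, adjusted p = 0.109). The part of the library share in the result was not tested further.
Relative to exons, Otx2 introns were 1.13 ± 0.47 (SE) higher in labeled RNA (limma, adjusted p = 0.104). Of 21208 genes or unmatched transcripts tested, 15.8% were higher and 0.33% lower. These shares were 3.67% and 2.55% with centring. With the same block the adjusted p was 0.0359 (limma; 18.3% of all genes higher), and without the labeled library of replicate 2 at 15 min it was 0.00963, a setting in which 43.5% of all genes were higher.

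**Figure D3:**
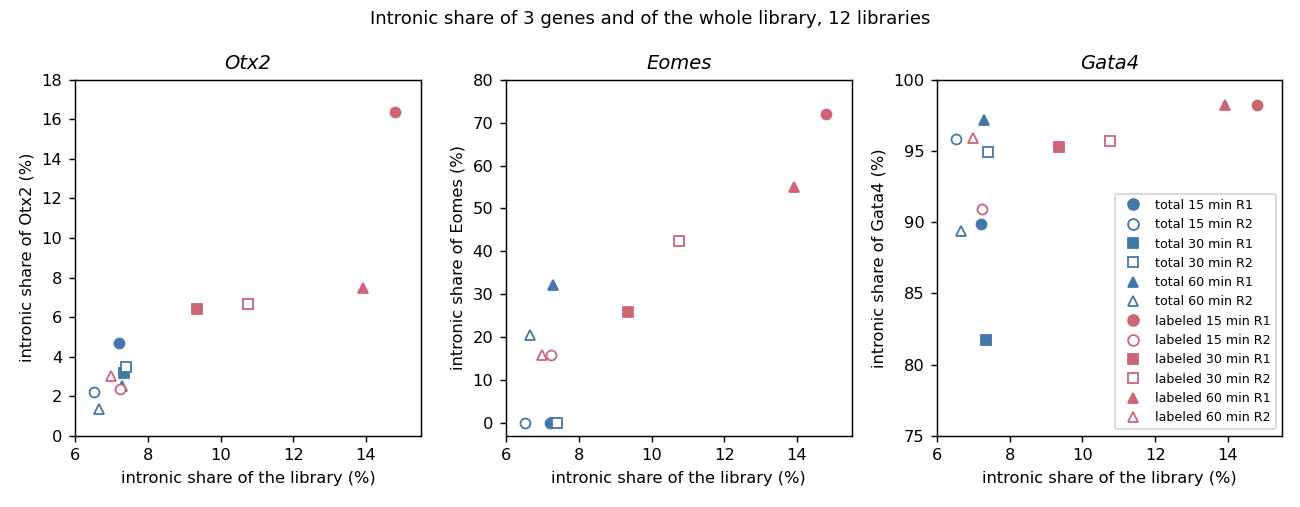
Intronic share of Otx2, Eomes and Gata4 (vertical axes, %) against the intronic share of the whole library (horizontal axis, %) in 12 libraries. Blue points are total and red points labeled RNA, with shapes for labeling time and filled points for replicate 1, and each panel has its own vertical range. The Otx2 and Eomes shares are highest in labeled RNA of replicate 1 at 15 min, 16.4% and 72.0%, and the Gata4 share is 81.7% or more in all libraries.

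Labeling time made no difference that passed the test in Otx2 exons. Labeled RNA at 60 min differed from that at 15 min by -0.89 ± 0.42 (SE) on the log2(value + 1) scale (limma, adjusted p = 1.00, unadjusted p = 0.0642). Replicate 1 alone gave -0.08 and replicate 2 alone -1.70. Of 25318 genes or unmatched transcripts, 0 passed (0.0%) with limma at an adjusted p under 0.05, and 252 had an unadjusted p under 0.05. No other tool was run.

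The genes whose exonic abundance ran most like that of Otx2 over the 12 libraries were 9530068E07Rik (Pearson r = 0.954 on the log2 scale), Rnf219 (r = 0.946) and Cdkn2aip (r = 0.937), out of 25317 compared. All were scaled to the same library totals. Otx2 was highest in the labeled library of replicate 2 at 15 min, and a single such library can carry much of a correlation.

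Pax6, the paired-box factor of eye and forebrain (chromosome 2 from 105509053 to 105543317, plus strand, NCBIM37), was spread thinly over 24 of its 26 exonic rows. Its exonic abundance in total RNA was 57.8 and 29.6 at 15 min, 140 and 24.3 at 30 min, and 16.1 and 21.6 at 60 min (replicates 1 and 2). In labeled RNA it was 34.5 and 31.1 at 15 min, 73.2 and 31.5 at 30 min, and 9.05 and 179 at 60 min. A single library stood out in each kind of RNA, replicate 1 at 30 min in total and replicate 2 at 60 min in labeled RNA. In these, 23 and 21 of 26 rows had a value, against 7 in labeled RNA of replicate 1 at 60 min. The transcript with the highest mean, ENSMUST00000123063, averaged 4.82 over the 12 libraries and had a value in 10.
Labeled minus total RNA was 0.17 ± 0.66 (SE) for Pax6 exons (limma, adjusted p = 0.889), and the sign turned with the replicate, at -0.81 in replicate 1 alone and 1.14 in replicate 2 alone. It also turned without the labeled library of replicate 2 at 60 min, to -0.47, and without the total libraries of replicate 2 at 30 min or replicate 1 at 60 min. At 60 against 15 min of labeling the difference was 0.33 ± 1.22 (limma, adjusted p = 1.00).
Pax6 introns had a value in 3 of 12 libraries, 226 in total RNA of replicate 1 at 15 min, 2.58 in total RNA of replicate 1 at 30 min and 7.47 in labeled RNA of replicate 1 at 15 min. Nearly all of the first, 222, was in the row of ENSMUST00000153639. Its single intron has 94 bases, so that few reads can give a high abundance per length. Introns relative to exons differed by -1.26 ± 1.00 (limma, adjusted p = 0.365), by -0.31 without the library that holds that row and by -2.65 without the 3 labeled libraries of highest intronic share. Replicate 2 alone, which has no Pax6 intronic value, gave -1.14 from its exons.

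Eomes, a T-box factor (chromosome 9 from 118387330 to 118395250, plus strand, NCBIM37), had exonic values for its 3 transcripts in all 12 libraries. The exonic abundance in total RNA was 13.7 and 17.7 at 15 min, 9.74 and 7.69 at 30 min, and 9.24 and 11.8 at 60 min (replicates 1 and 2). In labeled RNA it was 8.55 and 15.4 at 15 min, 12.1 and 17.0 at 30 min, and 13.5 and 13.4 at 60 min. Over all labeling times the ranges of the 2 kinds of RNA overlapped, as they did at 15 min. At 30 and at 60 min both labeled values lay above both total values. ENSMUST00000035020 had the highest mean of the transcripts, 5.21. With genes of a mean of at least 5 admitted, exons differed by 0.20 (limma, adjusted p = 0.654).
Its introns were present mostly in labeled RNA, with a value in 6 of 6 labeled libraries against 2 of 6 total libraries. Counted by the rows of its 3 transcripts, which share introns and so are not separate observations, this was 15 of 18 values against 4 of 18. Summed over transcripts, labeled RNA had 22.0 and 2.87 at 15 min, 4.21 and 12.5 at 30 min, and 16.5 and 2.52 at 60 min. Total RNA had 4.36 and 3.01 at 60 min and no value in the 4 libraries of 15 and 30 min. The ranges overlapped at 2.52 to 4.36. Eomes introns were below the filter of 20, and reached the lower filter of 5 only through labeled RNA, where the mean was 10.1 against 1.23, so that a difference was built into the choice. The difference there was 2.35 ± 0.60 (SE) on the log2(value + 1) scale and is given as a description with no test. It was 1.72 with centring and 1.31 without the 3 labeled libraries of highest intronic share.

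Mixl1, a paired-type homeobox factor of the primitive streak (chromosome 1 from 182623174 to 182627165, minus strand, NCBIM37), has 1 transcript, ENSMUST00000027778, with a single intron of 1698 bases. Intronic values were higher than exonic ones in all 12 libraries. Its exonic abundance in total RNA was 8.54 and 3.78 at 15 min, 1.16 and 2.35 at 30 min, and 6.88 and 1.58 at 60 min. Its intronic abundance in the same libraries was 15.6 and 11.97, 16.0 and 16.0, and 12.2 and 7.78. In labeled RNA the exons had 4.55 and 5.05, 1.62 and 2.64, and 5.29 and 1.01, and the intron had 34.9 and 9.14, 16.6 and 19.8, and 25.9 and 9.67. The intron thus made up 76.6% of the mean abundance of Mixl1 in total RNA, and 93.0% of 11942 protein-coding genes with a mean summed abundance of at least 20 had a lower share, against a median of 16.4%. Mixl1 itself was just below that mean, and its exonic values reached down to 1.01, near the limit of the table. With the lower filter the intron differed between labeled and total RNA by 0.40 ± 0.33 (limma, adjusted p = 0.365), and by -0.23 with centring.

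Gata4, a zinc-finger factor of endoderm and heart, spans positions 63817759 to 63890529 of chromosome 14 (minus strand, NCBIM37, ENSMUSG00000021944). It combined low exons with the highest introns among the members. Its exonic abundance in total RNA was 16.1 and 8.21 at 15 min, 21.7 and 7 at 30 min, and 5.98 and 10.7 at 60 min. Its intronic abundance in the same libraries was 143 and 190, 97.3 and 131, and 203 and 89.7. In labeled RNA the exons had 6.16 and 8.86, 7.09 and 7.88, and 2.55 and 11.2, and the introns 339 and 88.4, 143 and 174, and 141 and 261. Introns therefore made up 81.7% to 98.2% of Gata4 abundance over the 12 libraries. On the means of total RNA the share was 92.5%, and 95.7% of the 11942 protein-coding genes with a mean summed abundance of at least 20 had a lower one.

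These intronic values came from one end of the gene. Of the 6 Gata4 transcripts, ENSMUST00000132122, ENSMUST00000137244 and ENSMUST00000156782 have a single intron of 29938, 29327 and 29411 bases. On the minus strand these introns share their downstream end, 63860483, with the 3505-base first intron of the full-length transcripts ENSMUST00000067417 and ENSMUST00000118022. They reach upstream of its start at 63863987. No other M1 gene overlaps these introns. The 3 single-intron transcripts held 95.2% to 97.8% of the intronic abundance in total RNA and 92.8% to 98.3% in labeled RNA. Per transcript this was 19.9 to 44.5 times the mean of the other 3 in total RNA and 12.9 to 57.3 times in labeled RNA. Their exons had values in 2 of 12 libraries at most, and ENSMUST00000121312 had the highest exonic mean, 4.54.
The single long introns and the others ordered the libraries differently. Summed over the 3 transcripts with several introns, labeled RNA had 13.6 and 3.55 at 15 min, 5.89 and 6.47 at 30 min, and 10.1 and 4.47 at 60 min, in the order of the libraries' intronic shares apart from the lowest pair. The long introns had 325 and 84.9, 137 and 168, and 131 and 256, so that the library of replicate 2 at 60 min was second there although its intronic share was the lowest among labeled libraries. In total RNA they ranged from 85.4 to 198, against 3.73 to 5.20 for the others.
Labeled and total RNA did not differ in Gata4 introns by the test, at 0.35 ± 0.34 (SE; limma, adjusted p = 0.431), and the sign turned with centring, to -0.30. Introns relative to exons differed by 0.92 ± 0.49 (limma, adjusted p = 0.192), and the adjusted p was 0.0463 without the labeled library of replicate 2 at 15 min, where 43.5% of all genes were higher. With the lower filter, Gata4 exons differed by -0.57 ± 0.39 (limma, adjusted p = 0.360), and 11.6% of 37456 genes or unmatched transcripts passed.

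**Figure D4:**
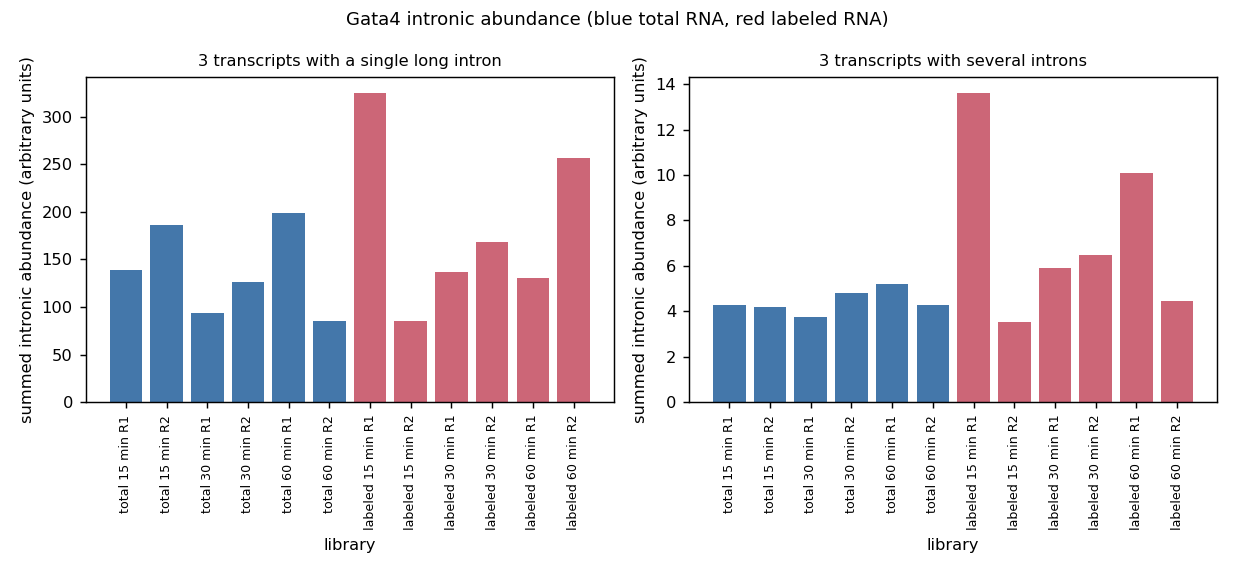
Summed intronic abundance of Gata4 (arbitrary units, bars from 0) in each of 12 libraries, for the 3 transcripts with a single long intron (left) and the 3 with several introns (right), with separate vertical ranges. Blue bars are total and red bars labeled RNA. The left bars reach 325 and the right bars 13.6, and labeled RNA of replicate 2 at 60 min is high on the left and low on the right.

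Other genes of the same lineages were read from a list of 42, of which 41 were matched. Of these, 32 had an exonic value in at least 1 library, 13 had one in all 12, and 9 had none. In the exonic comparison 9 could be tested, and 1 was lower, 0 higher and 8 did not pass, against 9.49% lower and 6.38% higher over all genes, with a median difference of 0.03 against -0.01 over all genes. In introns 3 could be tested and 0 passed, where 28.4% of all genes were higher, with a median of 0.65 against 0.60.
Of 11 endoderm genes, 4 were tested. Sparc was the most abundant, at 4979 ± 627 (SD, n = 6) in total and 3478 ± 276 in labeled RNA, and was lower in labeled RNA by a log2 difference of -0.51 ± 0.11 (SE; limma, adjusted p = 0.00931). It was the only gene of the 41 with a higher mean than Otx2 in total RNA. Of 11 mesoderm genes, 5 had no exonic value, Mesp1, Msgn1, Foxc1, Kdr and Evx1, and 0 could be tested. Tbx6, a T-box factor of the paraxial mesoderm, had the highest mean in total RNA, 3.64 ± 3.32, within its SD of the 3.36 of Hand1.
Among 12 neuroectoderm and epiblast genes, 3 were tested and 0 passed, and Pax3, Pax7 and Neurog2 had no exonic value. Zic2, a zinc-finger factor of the epiblast and neural plate, was the highest in total RNA, at 43.4 ± 9.44, with 45.6 ± 14.8 in labeled RNA (limma, adjusted p = 0.937). Of 9 trophectoderm genes, 8 were matched and all 8 had a value in some library, 2 were tested and 0 passed. Tead4, which acts upstream of Cdx2, was the highest, at 191 ± 30.5 in total and 150 ± 19.0 in labeled RNA (limma, adjusted p = 0.124).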

How the data were processed

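Values were the deposited signal of one table, in which the authors gave an abundance for the exons and for the introns of each transcript, scaled to a common total and listed when above 1. Per the labels and methods, ribosomal reads were removed with STAR 2.5.0, and the rest was aligned with STAR and quantified with RSEM. The processing notes name mm10. Rows were matched by transcript identifier to GENCODE M1 on NCBIM37, whose positions are given, so no coordinates of the table were used. Promoters are from RefSeq on GRCm38.p6.

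Values were summed over the transcripts of a gene, missing values were set to 0, and log2(sum + 1) was tested with limma 3.58.1 (R 4.3.3) with a mean-variance trend and labeling time as covariate, for a mean abundance of at least 20, with Benjamini-Hochberg adjustment over the whole table at 0.05. Labeling times were compared with 1 mean for each of the 6 groups. The script was tested on simulated data. Tables and plots used Python 3.11.15 and matplotlib 3.10.9.

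The members and lists were chosen with earlier results of these data known. Named genes were all members with their most abundant transcript, in each lineage list the most abundant gene in total RNA and those that passed, and the 3 genes most correlated with Otx2. ENSMUST00000135279, ENSMUST00000152018, ENSMUST00000153639 and the long-intron Gata4 transcripts were singled out after their values were seen.

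The labels give a biological replicate number, which was taken to mark a culture and so to pair labeled with total RNA. Deviations of same-numbered libraries from their group means correlated over 25318 genes or unmatched transcripts at -0.0359, 0.0746 and -0.236 for 15, 30 and 60 min. These correlations do not bear out the pairing, which the main test did not use. The alternatives were another pseudocount, filter, treatment of missing values, centring, single transcripts, the block, no labeling time, and libraries or replicates left out.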

Additional observations from a re-analysis of the deposited data

Results flagged for a closer look

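Of 24 sets of 6 libraries examined for a library far from the others, 3 held one, where chance gives about 1 in 20, or 1.2. The sets share genes and libraries and were not independent, so 3 against 1.2 does not establish an excess over chance. The intron of Mixl1 made up 64.4% of its abundance in labeled RNA of replicate 2 at 15 min, against 83.0% to 91.1% in the other 5 labeled libraries. Pax6 exons had 140 in total RNA of replicate 1 at 30 min, against 16.1 to 57.8 in the other 5 total libraries. Introns made up 16.4% of Otx2 abundance in labeled RNA of replicate 1 at 15 min, against 2.36% to 7.47% in the other 5 labeled libraries.

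The difference between labeled and total RNA took opposite signs at different labeling times in 2 genes, with both replicates of each time compared on the same side. Eomes exons differed by a mean of -0.41 on the log2 scale at 15 min, 0.67 at 30 min and 0.34 at 60 min, so that 15 min stood -1.07 from 30 min and -0.74 from 60 min. Mixl1 exons differed by 0.20 at 30 min and by -0.34 at 60 min, 0.54 apart, and at 15 min its replicates had opposite signs. These differences between labeling times were not tested, and with 2 replicates the signs can agree by chance in some of the comparisons looked at. Mixl1 exons were near the limit of 1, from 1.16 to 2.64 at 30 min and at 1.58 and 1.01 in replicate 2 at 60 min.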

How the results depend on the processing

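The values of the members are limited by missing abundances of 1 or less, a depth per library that the table does not show, and 2 cultures of 1 line. The count of genes that differed in exons was 4017, and 7888 with single transcripts, 2442 with the replicate block, 1900 without the 3 labeled libraries of highest intronic share, 0 to 5 without either replicate and 2334 to 5479 with 1 library left out. In introns it was 3625, and 6161 with the filter of 5, 6438 with no filter, 1381 to 5710 without either replicate and 2180 to 6363 with 1 library left out. With the filter of 5 it was 7847 with the replicate block, 6860 without the 3 libraries and 3456 to 11164 with 1 library left out. For introns relative to exons it was 3413, and 1318 with centring, 8230 with single transcripts, 946 without the 3 libraries, 89 to 5303 without either replicate and 1080 to 9363 with 1 library left out. With the filter of 5 it was 1300 with centring, 503 without the 3 libraries and 1059 to 10219 with 1 library left out. For 60 against 15 min it was 0, and 5 with no filter, 46 without the 3 libraries and 0 to 6 with 1 library left out. The causes were not tested.

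Direction turned for Gata4 introns with centring, at -0.30, and at -0.28 with the filter of 5. For Otx2 exons the difference was -0.0026 to 0.33 with 1 library left out and -0.001 to 0.43 with a replicate left out. For Pax6 exons it was -0.47 to 0.57 and -0.81 to 1.14, and at 60 against 15 min -1.75 to 2.42 and -1.82 to 2.49. The replicate block changed the call of Otx2 introns relative to exons and of no other member. Crossing the replicate numbers at 60 min gave 4718, 4556 and 3856 calls in exons, introns and their relation. The leave-outs of 1 library, of the 3 libraries, the crossed pairing and the further fits with the filter of 5 were chosen after the data were seen.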

Other observations

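Outside the members, intronic values with few or no exonic ones were found in genes picked after their values were seen. Hnf4a, a nuclear receptor of endoderm and liver, had no exonic value in any library and intronic values in all 12, from 4.45 to 32.3, with a mean of 11.5 in total and 17.3 in labeled RNA. Pdgfra, a receptor of primitive endoderm and mesoderm, had an exonic value in 1 library and intronic values in all 12, from 1.41 to 8.06.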
